A study of Mus musculus with 6 samples.

Results

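The genes described here are 40 transcripts of the exocrine pancreas and of the regenerating-protein (REG) family, read in isolated islets. They were chosen by name: digestive proteases, lipases and amylases, other proteins of the secretory granule, REG genes, and 4 transcription factors of acinar cells. A gene was taken where a probe set of the array carried its symbol and no other, which gave 37 of the 40 among 22180 genes in all. Cela2a and Amy2a5 lay only on probe sets shared with other symbols, and Pnlip was not matched, so these 3 were not analysed here.

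The 6 arrays held RNA of pancreatic islets from mice aged 5 weeks on the C57BL/6J background, 3 from β cell-specific Sel1L-deficient mice (floxed Sel1L alleles with Cre knocked in at the Ins1 locus) and 3 from wildtype mice (littermates with the floxed alleles). Sel1L is an adaptor of endoplasmic-reticulum-associated degradation, and in the deficient mice Cre acts in β cells, so other cells of the preparation keep the gene. Islets of both genotypes were released with Liberase, enriched on a Histopaque gradient, hand-picked and left to recover overnight. The labels do not say how many animals an array holds or whether a shared replicate number marks a shared isolation, and the p-values reflect only the spread seen among these 6 samples, which may be technical. Values are log2 RMA summaries, and array medians lay between 3.08 and 3.16. Sel1l itself was lower in Sel1L-deficient islets (7.73, 7.65 and 7.68) than in wildtype islets (8.46, 8.56 and 8.76), with a log2 difference of -0.90 ± 0.11 (SE; limma, adjusted p = 0.0312, or 0.0559 with the replicate number as a block). It passed the threshold in 0 of the 6 fits that left out 1 array, with adjusted p from 0.0829 to 0.14. Whether its probes fall in the deleted exons was not analysed here, so this value alone does not check the labels.

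All 6 samples are labelled female, but replicate 3 of each genotype went against that label. Xist, which silences one X chromosome in female cells, read 10.38, 10.17 and 3.08 in Sel1L-deficient and 9.93, 10.13 and 2.93 in wildtype islets. Uty, Eif2s3y and Kdm5d, all on the Y chromosome, read 5.39 to 7.31 in replicate 3 and at most 2.07 elsewhere. The counts of calls, the ranges and the median genotype difference of the 37 genes are given with and without the replicate 3 arrays.

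Acinar cells make and store digestive enzymes, most of them as inactive zymogens, in granules that empty into the pancreatic duct. Their enzyme genes are switched on by PTF1, a complex that includes the factors PTF1A and RBPJL. It binds an E-box next to a second box read by RBPJL. BHLHA15 (MIST1) shapes the secretory apparatus and NR5A2 works beside PTF1. Islets lie within acinar tissue, and islet preparations can carry some of it. REG proteins are small secreted C-type lectins, named after regenerating islets, that acinar cells also make, above all in injury and inflammation. In whole islet preparations, fewer cells of a type and less RNA per cell cannot be told apart, and the arrays do not show which cells made a transcript.

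The promoters of 6 of these genes are shown as examples. Prss2, Klk1 and Pla2g1b passed the test of replicate number given below. Cel and Reg3d varied with them and Bhlha15 ran the other way, but these 3 did not pass it (limma F test, adjusted p = 0.07, 0.208 and 0.74). Each is the RefSeq window from 250 bases before to 50 bases after the gene's start (GRCm38.p6), written 5′ to 3′ on the gene's strand. Capitals mark CACCTG, an E-box form bound by PTF1A, and TTTCCCA, the box bound by RBPJL, on either strand (CAGGTG and TGGGAAA on the other). No 2 marked matches overlap.
Prss2 (chr6:41521526-41521825, + strand): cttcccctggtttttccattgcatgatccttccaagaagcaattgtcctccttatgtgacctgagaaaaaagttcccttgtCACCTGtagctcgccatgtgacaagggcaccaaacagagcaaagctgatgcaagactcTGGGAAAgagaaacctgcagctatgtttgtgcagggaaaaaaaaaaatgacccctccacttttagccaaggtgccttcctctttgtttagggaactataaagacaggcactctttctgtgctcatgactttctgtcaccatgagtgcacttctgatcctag
Klk1 (chr7:44225110-44225409, + strand): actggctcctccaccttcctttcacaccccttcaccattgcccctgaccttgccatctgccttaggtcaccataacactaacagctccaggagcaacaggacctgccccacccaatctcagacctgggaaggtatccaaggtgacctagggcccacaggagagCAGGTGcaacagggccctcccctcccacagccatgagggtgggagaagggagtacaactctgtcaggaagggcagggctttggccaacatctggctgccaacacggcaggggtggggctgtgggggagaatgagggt
Pla2g1b (chr5:115465892-115466191, + strand): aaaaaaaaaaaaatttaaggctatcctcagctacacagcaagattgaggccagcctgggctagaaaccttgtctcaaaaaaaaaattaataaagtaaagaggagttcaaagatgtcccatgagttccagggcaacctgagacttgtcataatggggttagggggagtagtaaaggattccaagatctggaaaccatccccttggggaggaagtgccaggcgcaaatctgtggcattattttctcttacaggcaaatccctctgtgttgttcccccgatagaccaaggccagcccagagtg
Cel (chr2:28563354-28563653, - strand): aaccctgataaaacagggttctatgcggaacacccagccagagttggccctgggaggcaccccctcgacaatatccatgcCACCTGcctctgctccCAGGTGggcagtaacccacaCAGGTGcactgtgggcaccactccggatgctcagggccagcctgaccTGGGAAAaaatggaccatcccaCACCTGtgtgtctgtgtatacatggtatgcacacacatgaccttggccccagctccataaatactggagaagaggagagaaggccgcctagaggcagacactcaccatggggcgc
Reg3d (chr6:78378816-78379115, - strand): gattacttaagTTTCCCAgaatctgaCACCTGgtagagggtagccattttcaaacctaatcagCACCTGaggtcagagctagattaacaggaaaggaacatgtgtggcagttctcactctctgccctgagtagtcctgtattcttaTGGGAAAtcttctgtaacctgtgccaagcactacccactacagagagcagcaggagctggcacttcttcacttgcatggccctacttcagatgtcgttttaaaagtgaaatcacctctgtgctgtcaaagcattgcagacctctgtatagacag
Bhlha15 (chr5:144190036-144190335, + strand): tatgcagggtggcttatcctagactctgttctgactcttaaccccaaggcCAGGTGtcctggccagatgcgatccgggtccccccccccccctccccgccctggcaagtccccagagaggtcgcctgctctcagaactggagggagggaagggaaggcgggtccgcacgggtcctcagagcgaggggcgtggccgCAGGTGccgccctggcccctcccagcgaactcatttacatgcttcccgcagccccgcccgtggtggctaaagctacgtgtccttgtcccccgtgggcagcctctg
Of the 37 genes, 32 had at least 1 such window, and a gene was counted where any of its windows held the string. CACCTG was found for 19 of these 32 genes (59.4%) and for 22.6% of all 27025 genes with a window. The share of genes was 21.9% against 9.16% for TTTCCCA. Both strings were found for 3 of the 32 genes (9.38%), Prss2, Cel and Reg3d, and for 2.28% of all genes with a window. All 3 are among the 6 promoters shown, so those 6 do not stand for the 32. CACCTG was found for 9 of 11 proteases, 4 of 6 REG genes and 1 of 6 other granule proteins. The window of Pla2g1b held neither string, and that of Bhlha15 held CACCTG 2 times. These matches describe letters in a window and show no binding.

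The acinar and REG transcripts varied among arrays of the same genotype by far more than most genes did. The median SD within a genotype, pooled over both, was 1.23 log2 over the 37 genes and 0.16 over all 22180 genes. A range of at least 1 log2 within each genotype was reached by 25 of the 37 genes and by 87 genes, or 0.392%, of all genes measured. Among the other 62 of those 87 were 4 sex-linked genes and 3 further acinar genes. With replicate 3 left out, 0 of the 37 had such a range in both genotypes, against 0.0496% of all genes.

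**Figure D1:**
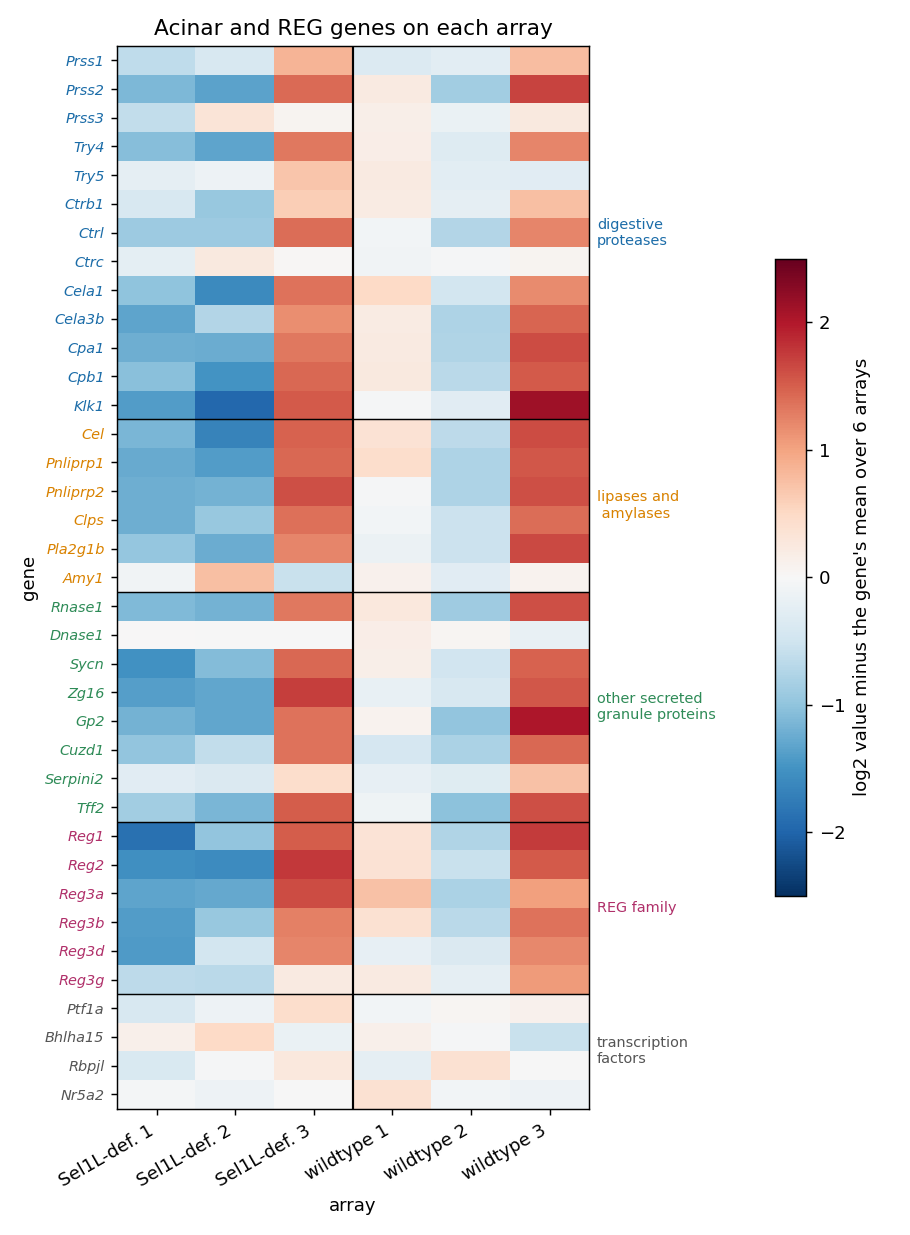
Log2 value of each of the 37 genes on each array minus that gene's mean over the 6 arrays (colour), with Sel1L-deficient arrays left and wildtype arrays right of the line and genes grouped by role. Both replicate 3 arrays lie above the other 4 for 28 genes, and most of the 4 transcription factors show little colour.

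In most of the 37 genes this variation set replicate 3 above replicates 1 and 2. Both replicate 3 arrays lay above all of the other 4 for 28 of the 37 genes, while 6.05% of all genes had that order. For replicates 1 and 2 the same count was 0 of 37 each, against 6.69% and 5.79% of all genes. Both replicate 1 arrays lay below the other 4 for 2 of the 37 genes, against 5.87% of all genes, and both replicate 2 arrays for 2, against 6.61%. A higher value in replicate 3 than the mean of replicates 1 and 2, in both genotypes, was found for 31 of the 37 genes and for 25.6% of all genes. The gene was highest on an array of replicate 3 for 30 of the 37 genes, 10 times in Sel1L-deficient and 20 times in wildtype islets. It was lowest on an array of Sel1L-deficient replicate 1 or 2 for 33 of them. The median shift, replicate 3 minus the mean of replicates 1 and 2, was 2.44 log2 (5.42-fold) in Sel1L-deficient and 1.62 log2 (3.07-fold) in wildtype islets, against 0.0061 and -0.0046 over all genes. On each array the median of the 33 secreted-protein genes was 4.63, 4.88 and 7.47 in Sel1L-deficient and 6.03, 5.43 and 7.51 in wildtype islets.

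The effect of the replicate number was tested with limma's F test on all genes, with genotype in the model. Of the 37 genes, 7 passed at an adjusted p under 0.05: Pla2g1b, Tff2, Gp2, Klk1, Cuzd1, Prss2 and Pnliprp2. Of all genes, 17 passed, or 0.0766%. The other 10 were the 4 sex-linked genes Xist, Uty, Eif2s3y and Kdm5d, the 3 further acinar genes Dmbt1, Spink1 and 2210010C04Rik, and, named here after their values were seen, the kallikrein gene Klk1b5, Gm38418 and Egr1, the last of which was highest in replicate 2. At an unadjusted p under 0.05 the count was 29 of the 37, against 1375 of all genes. Without Sel1L-deficient replicate 3 the F test called 0 of the 37, and 3 of all genes. Without Sel1L-deficient replicate 1 it called 18 of the 37 and 28 of all genes, and without wildtype replicate 1 it called 19 and 28. Without both replicate 3 arrays limma, comparing replicate 2 with replicate 1 on 1 residual degree of freedom, called 0 of the 37 and 0 of all genes, with 11 and 1264 at an unadjusted p under 0.05. Without wildtype replicate 3 the F test called 16 of all genes and 7 of the 37, of which only Klk1 and Pla2g1b were also among the 7 named above.

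No marker of duct, endocrine, endothelial, mesenchymal or white blood cells was called by replicate number in limma's F test, which called 0.0766% of all genes. In simulation this test recovered only 0.149% of genes changed by 1 log2, so a missing call does not show an absent shift. Their lists are given as mean log2 values, and their part in the result was not tested. For 12 of 14 duct markers measured, replicate 3 minus replicates 1 and 2 was 0.23 in Sel1L-deficient and 0.07 in wildtype islets. Both replicate 3 arrays lay above the other 4 for 3 of the 12 (Krt7, Krt8 and Krt18), against 6.05% of all genes. They lay below the other 4 for 0 of the 12, against 6.34% of all genes. The 7 measured β-cell markers gave 0.17 in both, and the 3 hormone genes of α, δ and PP cells -0.10 and -0.0039. Both replicate 3 arrays lay below the other 4 for 2 of these 3, Gcg and Sst, and above for 0. Endothelial markers gave 0.15 and 0.19, and leukocyte markers 0.044 and -0.31. In the β-cell, endothelial and leukocyte lists 0 genes had both replicate 3 arrays above, and 0 below, the other 4. Mesenchymal markers (6 of 6 measured) gave -0.30 and -0.66, but not alike. Col1a1, Col1a2 and Pdgfrb, 3 of the 6, were lowest on both replicate 3 arrays, against 6.34% of all genes. Col1a1 gave -1.14 and -1.89 (limma F test, adjusted p = 0.143). Rgs5, 1 of the 6, was highest there, with 0.62 and 0.89, against 6.05% of all genes. The mesenchymal list mean lay at 5.33 to 5.70 in Sel1L-deficient and 4.64 to 5.35 in wildtype islets. Replicate 3 of both genotypes also differed in the sex-linked transcripts, which cannot be told apart here from any other property of those arrays.

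Among the digestive proteases, 10 of 13 measured genes had both replicate 3 arrays on top and 2 passed the F test. Klk1, tissue kallikrein, had the largest pooled SD of the 37 genes, with 7.10, 6.53 and 10.02 in Sel1L-deficient and 8.46, 8.21 and 10.61 in wildtype islets. Its value in replicate 3 was 9.26-fold that of replicates 1 and 2 in Sel1L-deficient and 4.83-fold in wildtype islets (limma F test, adjusted p = 0.0211). Kallikrein genes are close paralogs, and the signals of Klk1 and Klk1b5 may not be independent. Prss2, a trypsinogen, read 4.09, 3.87 and 6.63 in Sel1L-deficient and 5.43, 4.33 and 6.89 in wildtype islets (adjusted p = 0.0438, limma F test). In both genotypes replicate 3 stood apart from the other arrays, and wildtype replicate 1 lay between.

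Ctrb1, chymotrypsinogen B, read 11.12, 10.57 and 12.15 in Sel1L-deficient and 11.72, 11.30 and 12.28 in wildtype islets. These values are near the highest on the arrays, 13.0, and its shifts of 1.30 and 0.77 log2 were among the smaller ones (limma F test, adjusted p = 0.255). Try4, another trypsinogen, read 7.83, 7.58 and 10.23 in Sel1L-deficient and 9.07, 8.59 and 10.13 in wildtype islets (adjusted p = 0.211, limma F test). The same order held for the elastase genes Cela1 and Cela3b, the procarboxypeptidase genes Cpa1 and Cpb1, the chymotrypsin-like Ctrl and the trypsinogen Prss1, with shifts of 1.36 to 2.71 log2 in Sel1L-deficient and 1.08 to 1.89 log2 in wildtype islets. Prss3 and Try5, both trypsinogens, and Ctrc, chymotrypsin C, had means over the 6 arrays of 1.61 to 3.05, below the highest array median, and were not separated from background. The 5 trypsinogen genes lie on chromosome 6 and are near-copies of each other, and the split of signal among them is uncertain.

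Of the 6 lipase and amylase genes measured, 5 had both replicate 3 arrays on top. Pla2g1b, pancreatic phospholipase A2, had the lowest adjusted p of the 37 genes. It read 5.88, 5.61 and 8.06 in Sel1L-deficient and 6.71, 6.32 and 8.51 in wildtype islets. Replicate 3 exceeded replicate 1 by 1.99 ± 0.15 and replicate 2 by 2.32 ± 0.15 log2 (SE; limma F test, adjusted p = 0.0064). The values of replicate 3 did not overlap with the other 4 arrays. Pnliprp2, a lipase-related enzyme, read 4.85, 4.88 and 7.67 in Sel1L-deficient and 6.03, 5.29 and 7.67 in wildtype islets (limma F test, adjusted p = 0.0489). For Cel, the bile-salt-activated lipase, the values were 6.52, 6.00 and 9.14 in Sel1L-deficient and 8.01, 7.0 and 9.29 in wildtype islets (adjusted p = 0.07, limma F test). Pnliprp1 read 6.45, 6.32 and 9.14 in Sel1L-deficient and 8.14, 6.94 and 9.27 in wildtype islets, with adjusted p = 0.15 in the limma F test. In these 4 genes Sel1L-deficient replicates 1 and 2 were lowest, and only for Pla2g1b did the 2 replicate 3 arrays differ by more than 0.15 log2. Clps, the colipase, was higher in replicate 3 by 2.46 log2 in Sel1L-deficient and 1.69 log2 in wildtype islets. Amy1, the salivary amylase, did not share the order and read 2.19 to 3.50 in Sel1L-deficient and 2.46 to 2.86 in wildtype islets. Most of its values lay below the array medians. All 6 secreted-protein genes without that order, Amy1 among them, had means below the highest array median, and all 26 brighter ones had the order.

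Among other granule proteins, 7 of 8 genes had both replicate 3 arrays on top and 3 passed the F test. Gp2, an anchored glycoprotein of the zymogen granule membrane, read 3.93, 3.81 and 6.47 in Sel1L-deficient and 5.21, 4.13 and 7.14 in wildtype islets (limma F test, adjusted p = 0.0174). Tff2, a trefoil peptide, read 3.38, 3.12 and 5.77 in Sel1L-deficient and 4.15, 3.23 and 5.86 in wildtype islets (adjusted p = 0.014, limma F test). Cuzd1, a zona pellucida domain protein of the granule, read 2.69, 3.06 and 5.03 in Sel1L-deficient and 3.25, 2.87 and 5.11 in wildtype islets (limma F test, adjusted p = 0.0236). Its values on replicates 1 and 2 lay near the array medians, and its shifts were 2.16 log2 in Sel1L-deficient and 2.04 log2 in wildtype islets.

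Sycn, syncollin, read 4.63, 5.05 and 7.58 in Sel1L-deficient and 6.28, 5.66 and 7.61 in wildtype islets (limma F test, adjusted p = 0.197). Zg16, a granule lectin, read 4.0, 4.07 and 7.12 in Sel1L-deficient and 5.19, 4.97 and 6.92 in wildtype islets (adjusted p = 0.0797, limma F test). Both had their 2 highest values on the replicate 3 arrays, and Sel1L-deficient replicate 3 was at the level of wildtype replicate 3. The ribonuclease gene Rnase1 was higher in replicate 3 by 2.47 log2 in Sel1L-deficient and 1.92 log2 in wildtype islets. For the serpin gene Serpini2, read below the array medians, the shifts were 0.76 and 0.998. Dnase1, the deoxyribonuclease I gene, stayed within 1.99 to 2.35 on all arrays, below the array medians.

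**Figure D2:**
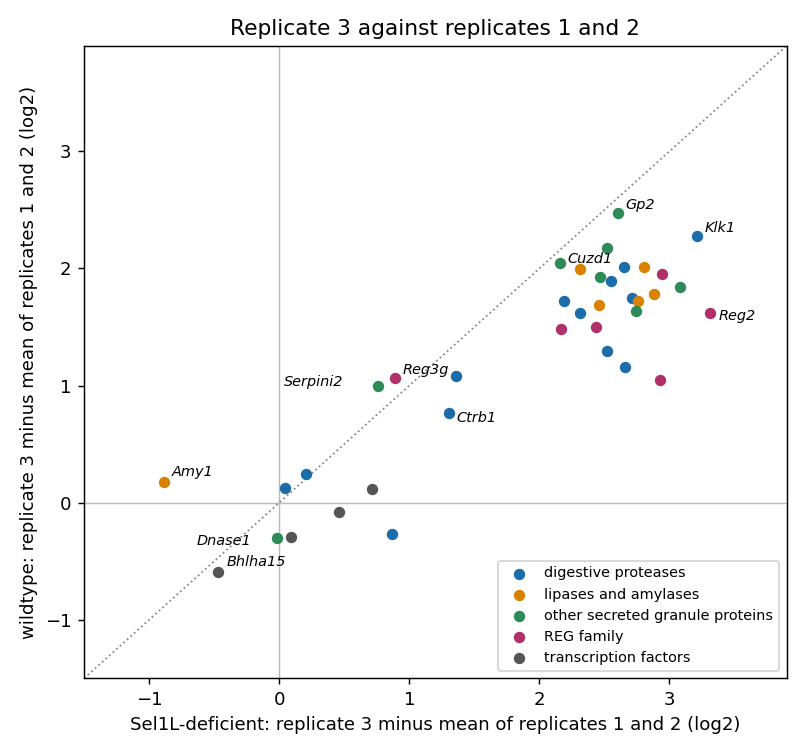
Shift of each of the 37 genes, replicate 3 minus the mean of replicates 1 and 2 in log2, in Sel1L-deficient (x axis) and wildtype islets (y axis), coloured by role, with the line of equal shifts dotted. Of the 33 secreted-protein genes 28 lie below the dotted line, and the transcription factors lie between -0.59 and 0.71.

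Of the 27 secreted-protein genes with both replicate 3 arrays on top, 26 had the larger shift in Sel1L-deficient islets. These genes varied together across the arrays, so the 26 are not separate results. The share over all genes was not computed. The folds over replicates 1 and 2 ran from 1.69 to 9.95 in Sel1L-deficient and from 1.70 to 5.54 in wildtype islets. Whether the shift differs between genotypes was not tested. Wildtype replicate 1 lay above both Sel1L-deficient replicates 1 and 2 in 32 of the 37 genes, against 36.6% of all genes.

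The 6 REG genes lie side by side on chromosome 6 with no other protein-coding gene between them, and for 5 of them both replicate 3 arrays lay above the other 4. Reg1, the gene the family is named for, read 5.87, 6.76 and 9.26 in Sel1L-deficient and 8.09, 6.99 and 9.49 in wildtype islets. Reg2, a close relative of Reg1, read 4.45, 4.41 and 7.75 in Sel1L-deficient and 6.35, 5.43 and 7.51 in wildtype islets. For both genes the replicate 3 arrays were highest, and Reg2 had the largest fold over replicates 1 and 2 of the 37 genes, 9.95 in Sel1L-deficient islets, against 3.07 in wildtype islets.

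Reg3a read 3.64, 3.67 and 6.58 in Sel1L-deficient and 5.70, 4.18 and 5.98 in wildtype islets. Reg3b, which codes for a lectin of acinar stress and gut defence, read 5.10, 5.54 and 7.76 in Sel1L-deficient and 6.88, 5.81 and 7.85 in wildtype islets. Wildtype replicate 1 was close to replicate 3 for Reg3a, and lay between the extremes for Reg3b. Reg3d read 2.34, 3.28 and 4.98 in Sel1L-deficient and 3.55, 3.39 and 4.96 in wildtype islets. Reg3g, which codes for a lectin that acts on gut bacteria, read 1.85, 1.84 and 2.73 in Sel1L-deficient and 2.73, 2.29 and 3.57 in wildtype islets. It was the 1 REG gene in which replicate 3 did not stand above all other arrays, and most of its values lay below the array medians. None of the 6 passed the F test of replicate number (limma adjusted p from 0.208 to 0.671), although all 6 had an unadjusted p under 0.05. After the genotype means were subtracted, the mean REG profile and the mean profile of the enzymes and other granule proteins had r = 0.99 over the 6 arrays, given as a description since both come from the same arrays. It was not computed without replicate 3.

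**Figure D3:**
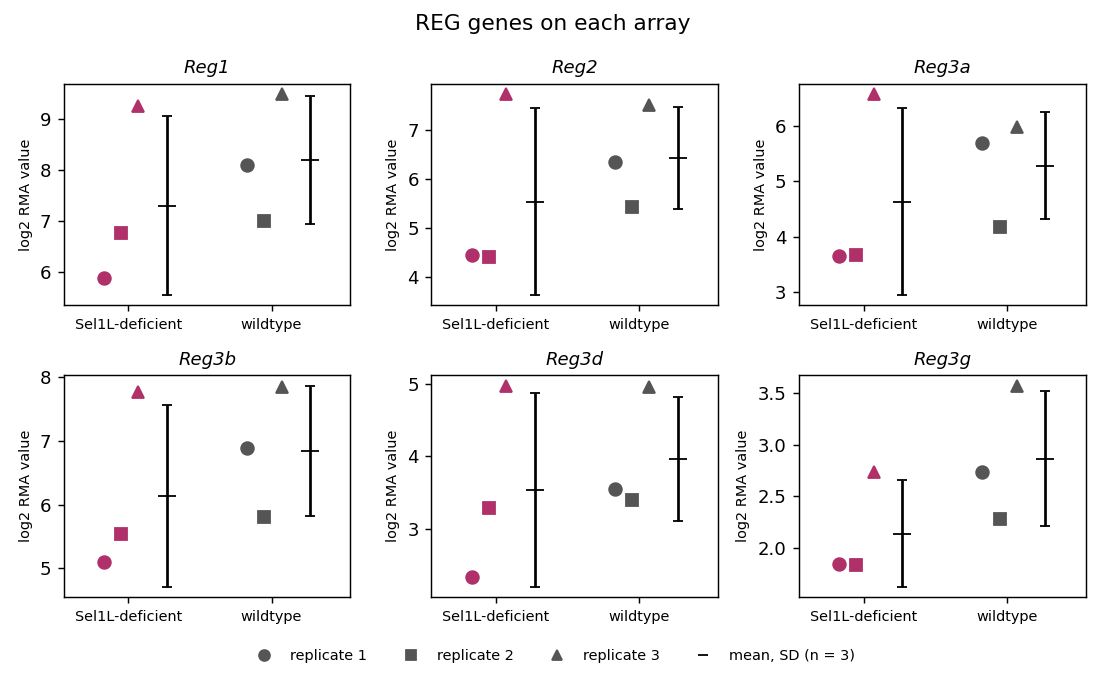
Log2 values of the 6 REG genes in Sel1L-deficient (left) and wildtype islets (right), with a circle, a square and a triangle for replicates 1, 2 and 3 and the mean with its SD (n = 3) beside them. The triangle is the highest point of its genotype in every panel, and the SD bars of the genotypes overlap in all 6.

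Genes tied to REG induction or reception were 12 genes of the interleukin-6 and interleukin-22 route and its targets, with the REG receptor candidate Extl3. Both replicate 3 arrays lay above the other 4 for 0 of the 12, against 6.05% of all genes. limma called 0 by genotype and 0 by replicate number, against 0.243% and 0.0766% of all genes. At an unadjusted p under 0.05 the counts were 2 by genotype and 1 by replicate number, against 2103 and 1375 of all 22180 genes. With only 12 genes, these counts do not set the list apart from all genes. Stat3, the factor through which these cytokines induce REG genes, read 9.47, 9.36 and 9.33 in Sel1L-deficient and 9.59, 9.65 and 9.39 in wildtype islets. Il6st, the receptor chain gp130 that serves interleukin-6, read 8.39, 8.22 and 8.17 in Sel1L-deficient and 8.30, 8.34 and 8.51 in wildtype islets. Lcn2, named after its values were seen, was the 1 gene with an unadjusted replicate-number p under 0.05 (limma F test, adjusted p = 0.802). It read 5.33, 5.30 and 5.01 in Sel1L-deficient and 6.22, 4.29 and 3.69 in wildtype islets. The median genotype difference of the 12 genes was 0.06. The groups did not overlap for 1 gene, Lifr, the receptor of leukaemia inhibitory factor, with a difference of -0.53 (limma adjusted p = 0.208), named after its values were seen. That is 1 of 12, against 15.1% of all genes.

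The 4 transcription factors varied less, with a median pooled SD of 0.31 log2, and of them only Ptf1a had both replicate 3 arrays on top. Ptf1a, the DNA-binding part of PTF1, read 2.27, 2.54 and 3.11 in Sel1L-deficient and 2.61, 2.71 and 2.77 in wildtype islets, below the array medians and not separated from background. Its second probe set read 1.66 to 1.78 on all arrays. Rbpjl, the other part of PTF1, also lay near or below the array medians, with 2.38 to 3.01 in Sel1L-deficient and 2.54 to 3.13 in wildtype islets. Nr5a2, a nuclear receptor, read 3.39, 3.30 and 3.44 in Sel1L-deficient and 3.83, 3.37 and 3.31 in wildtype islets. Bhlha15 was lowest in replicate 3 of each genotype, with 5.27, 5.63 and 4.98 in Sel1L-deficient and 5.26, 5.10 and 4.58 in wildtype islets (limma F test, adjusted p = 0.74). It was the 1 gene of the 37 with both replicate 3 arrays below the other 4, an order found in 6.34% of all genes. Its r with the mean of the secreted-protein genes was -0.80 over 6 arrays after genotype means were subtracted. By the same measure 28 of the 37 genes had r above 0.9 with the mean of the other secreted-protein genes. Both are descriptions and were not computed without replicate 3. The share of all genes with r above 0.9 was not computed either.

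Between genotypes, none of the 37 genes passed the threshold. limma called 0 higher and 0 lower in Sel1L-deficient islets, with 0 of the 37 at an unadjusted p under 0.05. Over all genes it called 54, or 0.243%, with 0.0902% higher and 0.153% lower, and 2103 had an unadjusted p under 0.05. The adjusted p ran from 0.573, for Reg3g, to 0.989. In 0 of the 37 genes did the values of the genotypes not overlap, against 15.1% of all genes (7.22% higher and 7.84% lower). The difference, Sel1L-deficient minus wildtype, was below 0 for 33 of the 37 genes, against 49.9% of all genes, with a median of -0.59 and a median of 0.00044 over all genes. The β-cell markers read lower in Sel1L-deficient islets, with list means of 8.48, 8.47 and 8.65, against 9.63, 9.39 and 9.69 in wildtype islets, and 3 of the 7 were called by genotype. Endothelial markers had list means of 7.38, 7.29 and 7.48 in Sel1L-deficient and 6.68, 7.05 and 7.05 in wildtype islets. Their part in the differences of the acinar genes was not tested.

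The intervals were wide. Klk1 averaged 7.88 ± 1.87 in Sel1L-deficient and 9.09 ± 1.32 in wildtype islets (SD, n = 3 each), a difference of -1.21 with a 95% interval from -3.32 to 0.90. Reg1 averaged 7.30 ± 1.76 in Sel1L-deficient and 8.19 ± 1.25 in wildtype islets (SD, n = 3 each), a difference of -0.89 with an interval from -2.88 to 1.10. For Reg3g the difference was -0.72 with an interval from -1.51 to 0.07. Ctrb1 differed by -0.49, with an interval from -1.38 to 0.39. Bhlha15 was among the 4 genes above 0, with a difference of 0.31 and an interval from -0.18 to 0.80. All 37 intervals included 0, and 27 of them reached below -1 log2, so neither a difference nor its absence was shown for those genes. The model behind these intervals left out the replicate number. The replicate 3 shift shared by both genotypes therefore counted as spread within a genotype, and it also enters the overlap of their values. For Klk1, limma's adjusted p by genotype was 0.753 in this model and 0.11 with the replicate number as a block. Intervals with the block are not given here.

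The size of the genotype difference depended on which arrays were set against each other. On replicates 1 and 2 alone the median difference of the 37 genes was -0.76, and 26 of them lay lower on both Sel1L-deficient arrays than on both wildtype arrays, against 19.8% of all genes. limma called 0 of the 37 on those 4 arrays, and 1 gene in all. Between the replicate 3 arrays the median difference was -0.07, with 23 of 37 genes lower in Sel1L-deficient islets, against 10757 of all 22180 genes. Without Sel1L-deficient replicate 3 the median was -1.35, and without wildtype replicate 3 it was -0.02.

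**Figure D4:**
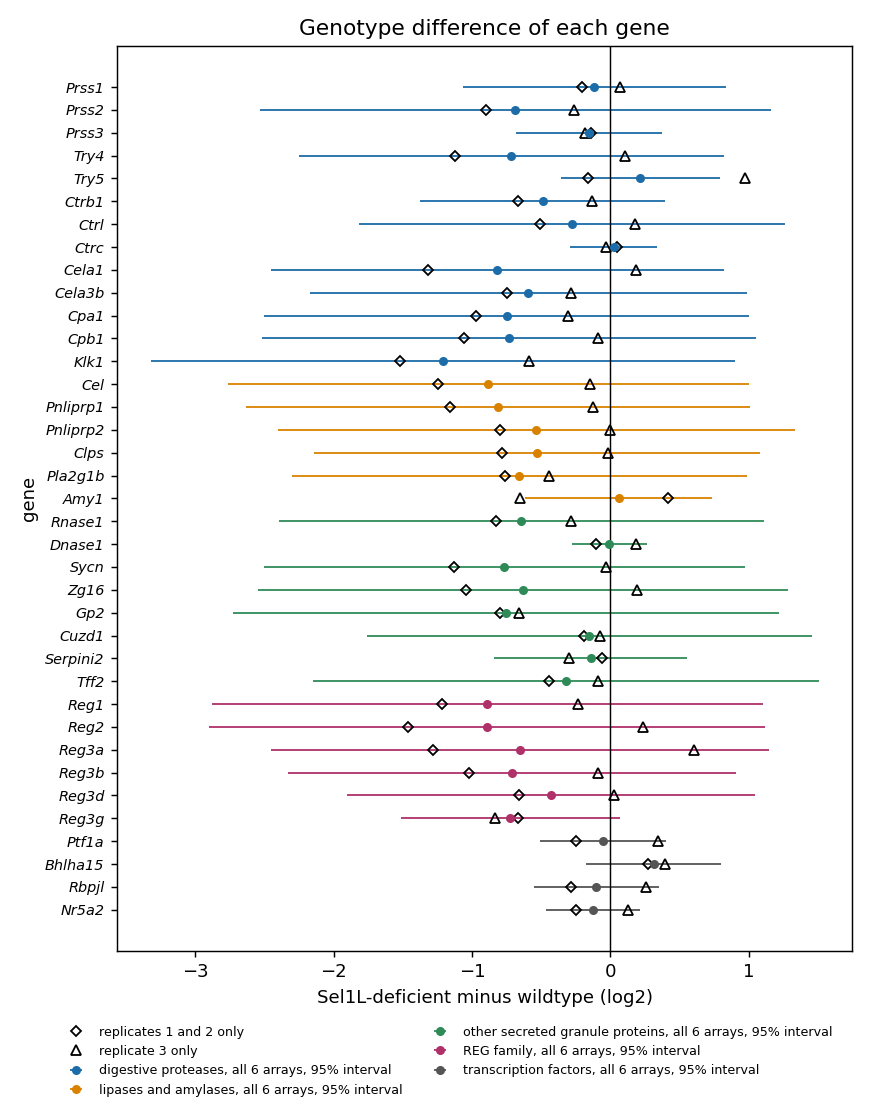
Sel1L-deficient minus wildtype difference (log2) of each gene with its 95% interval from limma over all 6 arrays (filled circles), on replicates 1 and 2 only (open diamonds) and on replicate 3 only (open triangles). The intervals of all 37 genes include 0, and for 27 of the 33 secreted-protein genes the triangle lies nearer 0 than the diamond.

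In a further list of 20 acinar genes, 17 of them measured, limma's F test called 3 by replicate number, against 0.0766% of all genes. Dmbt1, a secreted scavenger-receptor protein, read 4.68, 4.15 and 6.70 in Sel1L-deficient and 5.23, 4.71 and 6.99 in wildtype islets (limma F test, adjusted p = 0.00624). Spink1, the pancreatic trypsin inhibitor, read 2.76, 2.45 and 4.96 in Sel1L-deficient and 3.6, 3.14 and 5.40 in wildtype islets (adjusted p = 0.0064, limma F test). 2210010C04Rik, a trypsin-like gene, read 4.52, 4.19 and 6.31 in Sel1L-deficient and 5.54, 4.43 and 6.93 in wildtype islets (limma F test, adjusted p = 0.0279). These 3 genes had both replicate 3 arrays on top, as did 6 of the 17 in all, against 6.05% of all genes. By genotype limma called 0 of the 17, against 0.243% of all genes. At an unadjusted p under 0.05 the count was 3 of the 17, against 2103 of all 22180 genes, with a median difference of -0.14. Those 3, named after their values were seen, were Chrm3, a muscarinic receptor gene, with -0.60, Gnmt with -0.32 and Cela3a with 0.39. None of them had both replicate 3 arrays above the other 4, and which cells made these transcripts was not tested.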

How the data were processed

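Islet RNA was read on 6 Affymetrix arrays, 3 per genotype. The deposited values were made by the authors with RMA, per the submitters' processing notes, and were treated as log2 because they lay between 0.526 and 13.0. The sources used here do not give the log base, software version or filters. The platform annotation gave 1 symbol for 23521 of 41345 probe sets and several for 1814. The probe set with the highest mean stood for a gene. All 37 genes matched RefSeq (GRCm38.p6) with their symbol unchanged.

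Differences were fitted with limma 3.58.1 in R 4.3.3, two-sided, with Benjamini-Hochberg adjustment over 22180 genes. The F test of replicate number had genotype in the model. Simulated data held 22180 genes, with 200 changed. The genotype test recovered 67.2% of genes changed by 1 log2 and 92.9% of those changed by 2. The replicate test recovered 0.149% and 62.3%. The changed genes were drawn from all genes, whose median SD within a genotype was 0.16 log2, against 1.23 over the 37 genes. The noise was independent between arrays. These shares therefore do not apply to the 37 genes, whose recovery was not simulated. Genes named with all values were the REG genes, those past a threshold and, per role, the 2 brightest and the 2 most variable. Members, lists and rules were chosen with earlier results of these data known. The number of arrays limits the precision.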

Additional observations from a re-analysis of the deposited data

How the results depend on the processing

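No gene of the 37 was called by genotype under any alternative, and the lowest adjusted p was 0.11, for Klk1 with the replicate block. Over all genes the genotype test called 133 with an intensity trend and robust prior, 1 on replicates 1 and 2 only, and 4 to 29 without 1 array. The replicate number test called 3 of the 37 genes after a further quantile normalization (12 over all genes). With the trend and robust prior it called 13 (30 over all genes). Without 1 array it called 0 to 19 (3 to 28 over all genes). The lowest of these counts came without Sel1L-deficient replicate 3. The 25 genes with a range of at least 1 log2 in both genotypes became 0 on replicates 1 and 2 only, as did the 7 and 17 called by replicate number (0 each), both alternatives chosen after seeing the data. The median difference of the 37 genes ran from -1.35 to -0.02 without 1 array. The median of the further acinar list was -0.47 among the brighter genes, where 7 were left, and -0.29 to 0.044 without 1 array. The cause of these moves was not tested.

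Deviations from the genotype means correlated by 0.105, 0.072 and 0.21 for the arrays of replicates 1, 2 and 3. Replicate 2 lay under the set minimum of 0.1, so the numbers were not taken to pair the samples in the main genotype test. All 6 arrays nevertheless correlated best with their own number, and correlations with other numbers ran from -0.133 to 0.0408. A pairing therefore remains possible. With the replicate block 0 of the 37 genes and 36 of all genes were called by genotype, against 54 without it, and Sel1l had an adjusted p of 0.0559.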
